A study of Mus musculus with 12 samples.

Results

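Gene expression in the cerebellum of mice without the homeobox gene En2 was compared with that of wild type (WT) littermates. The comparison takes the 6 arrays whose tissue label is cerebellum, 3 of En2-/- mice (labelled En2KO) and 3 of WT mice (labelled En2WT), out of 12 arrays in the series, the others being of hippocampus. Each array received Cy3-labelled RNA of an entire cerebellum. According to the methods, the mice were adults of 3 to 5 months and of both sexes, born to heterozygous parents, and the mutants, first made on a mixed 129Sv x C57BL/6 and outbred background, had been bred into C57BL/6 for at least 5 crosses. Stretches of DNA from the founder strains can therefore differ between the genotypes, near En2 and elsewhere. The allele lacks the homeobox in every cell of the body, so that a difference in the adult cerebellum can date from any stage of development. The array reads whole tissue, in which fewer cells of a type and less RNA per cell cannot be told apart.

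En2 encodes engrailed-2, a DNA-binding protein that mostly represses its target genes. In the embryo it is made at the border of midbrain and hindbrain, where engrailed proteins help to set up the cerebellum, its lobules and the parasagittal stripes of Purkinje cells, and in the adult it is still made in the cerebellum. Purkinje cells are the output neurons of the cerebellar cortex, which also holds granule neurons, inhibitory interneurons, Bergmann glia, other glia and vessels, while meninges and choroid plexus lie against it.

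Every value below is a log2 intensity, quantile normalized over the 6 cerebellum arrays, so that a difference of 1 is a doubling. Values of a gene are given for WT arrays 1, 2 and 3 and then for En2-/- arrays 1, 2 and 3. Brightness depends on the probe, so the level of one gene is not compared with that of another. On the cerebellum arrays between 67.8% and 73.0% of 43379 spots were well above background, none was saturated, and the median signal was 5.72 times (WT 3) to 10.4 times (WT 2) the local background. Correlations between arrays ran from 0.970 to 0.991, and WT 3 stood somewhat apart from WT 1 and WT 2 (0.971 and 0.978, against 0.991 between those 2). Replicates of the same number lay on 1 slide, with WT always at the first position and En2-/- at the second, so that position and genotype cannot be told apart. The methods describe RNA from 3 adult mice of each genotype. The labels call the samples replicates and do not say which mouse each came from. P-values measure the spread between these samples, which may be technical where samples do not come from different mice.

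The En2 probe did not differ between the genotypes beyond the spread of the arrays. It read 14.15, 13.90 and 14.70 in WT and 14.18, 14.89 and 14.59 in En2-/- cerebellum, which is 0.30 higher with an SE of 0.28 (limma adjusted p = 0.848). Its probe lies outside the deleted part of the gene (chromosome 5, 28498468 to 28498528 in mm9, 3′ end), so its signal checks neither the deletion nor the labels. Markers of cerebellar neurons were detected. Of the granule neuron markers, 15 of 15 on the array were above background on at least 3 of 6 arrays, among them Gabra6, a GABA receptor subunit of mature granule neurons, at 14.79, 14.76 and 14.99 and at 14.80, 15.07 and 14.80. Of the Purkinje cell markers on the array, 17 of 18 passed the same limit. Over all genes 16031 of 21164 passed it, so these counts do not check the tissue label. The Y-linked genes Ddx3y, Eif2s3y, Kdm5d and Uty were above background on 0 of 6 arrays, and Xist on all 6. Signal of male tissue was thus not seen on these arrays, although the methods name mice of both sexes.

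Most of the cerebellar transcriptome was alike in the genotypes, and a small group of genes differed by a large amount. A gene was tested where its brightest probe was well above background on at least 3 of 6 arrays, which left 16031 of 21164 genes, 14732 of them above background on all 6 arrays. The difference, En2-/- minus WT, had a median of -0.03, a median size of 0.195 and 25th and 75th percentiles of -0.22 and 0.16. The linear models of limma, with Benjamini-Hochberg adjustment over all genes tested and a threshold of 0.05, called 91 genes (0.568% of those tested), 42 higher in En2-/- cerebellum (0.262%) and 49 lower (0.306%). At an unadjusted p under 0.05 there were 1428 genes (8.91%). The 3 En2-/- arrays lay above all 3 WT arrays for 950 genes (5.93%) and below them for 1382 genes (8.62%). The rank product, a test on the ranks of all ratios between arrays that the study's methods use, put 377 genes higher (2.35%) and 401 lower (2.5%) at P under 0.01, the 91 among them. These shares are the background for each count of named genes that follows.

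The called genes were set apart by the size of their differences, as the plot of difference against level shows. The median size of a called difference was 2.05, the smallest was 1.11, and 50 of 91 were above 2. A total of 453 genes differed by more than 1, so most differences of that size were not called. All 91 had a single sign on the 3 slides and no overlap between genotypes. Called genes were mostly dim. When the genes tested were divided by their mean level into 4 equal groups, the dimmest (below 7.68) held 49 called genes, the next ones 26 and 13, and the brightest (above 12.2) held 3. In 7 of the 42 higher genes no WT array was above background, and in 11 of the 49 lower genes no En2-/- array was. For these a lower bound of the fold is given, the mean of the brighter genotype against the lowest signal well above background on each array of the other. Leaving out any 1 array lowered the count, to 46, 40 and 78 without WT 1, 2 and 3 and to 48, 49 and 39 without En2-/- 1, 2 and 3. There were 31 genes past the threshold without each of the 6 arrays in turn, and they are called stable below.

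**Figure D1:**
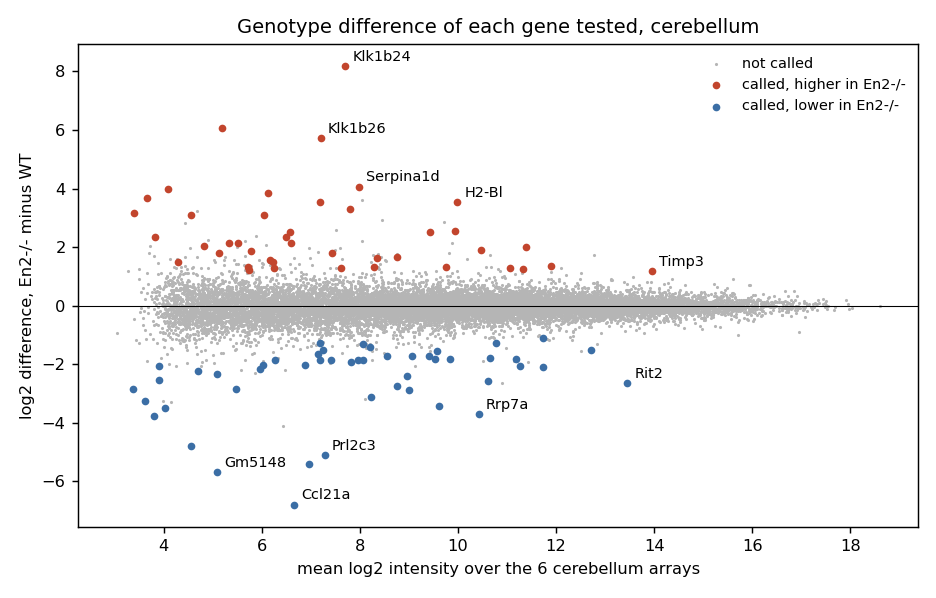
Difference of each gene tested (vertical axis, log2, En2-/- minus WT, means of 3 arrays each) against its mean log2 intensity over the 6 cerebellum arrays (horizontal axis). The 42 genes called higher (red) and 49 called lower (blue) lie away from the bulk of the 16031 genes (grey), mostly at low and middle levels.

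The largest increases were in kallikrein 1-related peptidases, serine proteases best known from the salivary gland. All 7 kallikreins that rose, of 16 tested (7 higher and 0 lower against the background of 0.262% and 0.306%), belong to the Klk1b group. Klk1b24 read 3.57, 3.69 and 3.56 in WT and 12.04, 12.58 and 10.77 in En2-/- cerebellum, an increase of 8.19 (SE 0.42, limma adjusted p = 0.000261) with 1 of 3 WT arrays above background. Klk1b21 read 2.24, 2.36 and 1.91 and then 8.25, 9.25 and 7.18, at least 20.2-fold higher (limma adjusted p = 0.00153), with 0 of 3 WT arrays above background. Klk1b26 (4.10, 3.999 and 4.92, then 10.28, 10.72 and 9.202) rose by 5.73 (SE 0.42, limma adjusted p = 0.00123). In each of these genes En2-/- 2 was the highest array and En2-/- 3 the lowest. Klk1b27 rose by 3.85, Klk1b3 by 3.30, Klk1b8 (5.64, 4.86 and 5.47, then 7.97, 8.38 and 7.15) by 2.51 and Klk1b4 (4.97, 4.66 and 4.89, then 6.85, 6.90 and 6.36) by 1.87 (limma adjusted p from 0.0117 to 0.0274), and these 4 were not stable. The other 9 kallikreins tested were not called, and 1 of them, Klk4, an enzyme of tooth enamel, had genotypes that did not overlap (7.67, 7.02 and 6.89 against 6.78, 6.25 and 6.57).

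Near-identical members make it uncertain which kallikrein a probe read. Probes were compared between genes whose symbol starts with Klk1, which takes in Klk12, Klk14 and Klk15 outside the Klk1b group. Of the 188 pairs 4 had 45 or more bases alike, all of them between Klk1 or Klk1b genes. The probes of Klk1b27, Klk1b11 and Klk1b24 are printed to show how close they are and that they gave different readings, with capitals for the bases that differ from the Klk1b27 probe where the sequences align. They are on the plus strand of mm9, at chr7:51311959-51312018 for Klk1b27, chr7:51255119-51255178 for Klk1b11 and chr7:51447692-51447751 for Klk1b24, and each is 60 bases long.
Klk1b27: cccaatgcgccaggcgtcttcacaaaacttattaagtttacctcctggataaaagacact
Klk1b11: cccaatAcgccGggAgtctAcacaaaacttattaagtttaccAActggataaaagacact
Klk1b24: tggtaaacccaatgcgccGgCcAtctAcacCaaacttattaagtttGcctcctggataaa
The Klk1b11 probe shares 54 of 60 bases with that of Klk1b27 and the Klk1b24 probe 47 of 53 aligned bases. Klk1b11 was above background on 0 of 6 arrays, while Klk1b27 read 3.35, 4.22 and 5.04 in WT and 7.99, 9.01 and 7.15 in En2-/- cerebellum. A second probe of Klk1b3 was also higher (3.64, 3.30 and 4.09, then 9.85, 10.08 and 8.55), whereas a second probe of Klk1b26 was at background on all 6 arrays.

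Protease inhibitors of the serpin family held 2 called genes of 28 tested, both in the alpha-1-antitrypsin group (chromosome 12), whose products inhibit elastase in blood. Serpina1d read 6.54, 5.71 and 5.59 in WT and 10.59, 9.46 and 9.98 in En2-/- cerebellum, an increase of 4.06 (SE 0.36, limma adjusted p = 0.00286). Serpina1b (2.04, 2.03 and 2.22, then 6.44, 5.84 and 5.95) was at least 4.54-fold higher (limma adjusted p = 0.000299). Both were stable, and both are near copies of one another, so that a probe could have read either. Serpina1c, of the same group, differed by 1.67 (4.43, 3.73 and 3.39, then 5.75, 5.44 and 5.37, limma adjusted p = 0.0649), with 2 of 3 WT arrays above background. The median of the 28 serpins was -0.07, close to that of all genes.

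The other large increases were in genes of unlike function. Akr1c20, an aldo-keto reductase, read 1.79, 1.79 and 1.92 and then 6.45, 4.30 and 5.75, and was at least 3.05-fold higher (limma adjusted p = 0.0206). Fn3krp, a kinase that removes sugars from glycated proteins, rose by 3.54 (5.43, 5.52 and 5.32, then 8.62, 9.57 and 8.71, SE 0.27). Nt5c1b, a nucleotidase that makes adenosine, was at least 2.14-fold higher (1.80, 1.75 and 1.87, then 4.78, 5.25 and 4.93). Stag3, a cohesin subunit of meiosis, rose by 3.11 (3.34, 3.80 and 1.87, then 6.17, 6.27 and 5.92) and was above background on 1 of 3 WT arrays, and Gm5067, a predicted gene, rose by 3.09 (4.18, 5.19 and 4.16, then 7.82, 7.36 and 7.61). The limma adjusted p for Fn3krp, Nt5c1b, Stag3 and Gm5067 ran from 0.000461 to 0.0322. Slc7a14, a lysosomal amino acid transporter of neurons, rose by 2.56 (8.48, 9.06 and 8.40, then 11.35, 10.89 and 11.39), and Ocel1, a protein with an occludin domain, by 2.53 (8.22, 8.07 and 8.20, then 11.39, 10.47 and 10.20). Med1, a subunit of the Mediator complex of transcription, rose by 2.02 (10.31, 10.30 and 10.54, then 12.55, 12.12 and 12.53). Timp3, an inhibitor of matrix metalloproteinases, was the brightest gene that rose (13.32, 13.56 and 13.20, then 14.38, 14.59 and 14.66) and was called at the edge of the threshold (1.18, SE 0.19, limma adjusted p = 0.0494).

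The largest decrease was in Ccl21a, a chemokine that draws lymphocytes and dendritic cells through the receptor Ccr7. It read 9.90, 10.98 and 9.29 in WT and 3.71, 2.42 and 3.64 in En2-/- cerebellum, where no array was above background, and was at least 64.2-fold lower (limma adjusted p = 0.00123). Gm5148, a predicted gene, was even within each genotype (7.92, 7.92 and 7.97, then 2.28, 2.23 and 2.22) and at least 14.8-fold lower. Prl2c3 and Prl2c5, prolactin-related hormones known as proliferins, fell by 5.11 and 5.39 (SE 0.35 and 0.45, limma adjusted p = 0.00107 and 0.00226), with 2 and 1 of 3 En2-/- arrays above background, so the sizes rest in part on values at background. Prl2c3 read 10.05, 9.35 and 10.11 and then 4.48, 4.27 and 5.44, Prl2c5 read 9.48, 9.34 and 10.13 and then 3.83, 3.63 and 5.33, and each of the 3 probes of Prl2c3 and 2 of Prl2c5 was lower in En2-/- cerebellum. Whether the probes of Prl2c3 could have read Prl2c5, or the reverse, was not tested. The prolactin family had 5 members tested of 22 on the array, and all 5 were lower, Prl3b1, Prl3d1 and Prl3d2 by -0.32, -0.55 and -1.14 without being called.

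Several genes that fell were bright in WT cerebellum. Rit2, a small GTPase of neurons, read 14.97, 14.71 and 14.64 in WT and 12.19, 11.96 and 12.23 in En2-/- cerebellum and fell by 2.65 (SE 0.19, limma adjusted p = 0.00123), and a second probe fell alike (11.22, 11.33 and 10.93, then 8.35, 8.58 and 8.71). Rrp7a, a factor of ribosomal RNA processing, fell by 3.71 (12.38, 12.45 and 12.002, then 8.84, 8.43 and 8.43, SE 0.21). Usp53, of the ubiquitin protease family and found at tight junctions, fell by 3.44 (11.33, 11.29 and 11.41, then 7.996, 8.10 and 7.61, SE 0.20). These 3 were stable, as was Slc7a8, a transporter of neutral amino acids and thyroid hormone (12.002, 12.11 and 11.58, then 9.35, 9.53 and 9.08). Slc7a8 fell by 2.58. Mospd3, with a domain first known from sperm proteins, fell by 3.12 (10.02, 9.47 and 9.88, then 6.31, 6.88 and 6.83), and Bfsp2, a filament protein of the lens, fell by 2.75 (10.14, 10.40 and 9.85, then 7.82, 7.18 and 7.14), both stable too. Galnt15, which starts the sugar chains of mucins, fell by 2.06 (12.38, 12.48 and 12.02, then 10.66, 9.90 and 10.14), Pop4, a subunit of the RNA-cutting enzyme RNase P, by 2.09 (12.61, 13.25 and 12.46, then 10.88, 10.49 and 10.65), Cdc42ep1, an effector of the GTPase Cdc42, fell by 1.501 (13.33, 13.41 and 13.66, then 11.93, 12.02 and 11.94) and Acad9, a dehydrogenase needed to assemble respiratory complex I, by 1.11 (12.27, 12.20 and 12.40, then 11.09, 11.14 and 11.31).

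Other decreases were in genes better known outside the brain. Cps1, the first enzyme of the urea cycle, was at least 3.28-fold lower (5.59, 5.37 and 6.34, then 2.11, 2.53 and 2.21), and Svs5, a secretory protein of the seminal vesicle, at least 1.69-fold lower (4.34, 5.06 and 5.02, then 1.94, 1.97 and 1.96). Krt28, a keratin of the hair root sheath, fell by 2.88 (9.86, 10.21 and 11.26, then 7.77, 7.46 and 7.45), and the olfactory receptor Olfr288 by 2.85 (6.99, 6.91 and 6.77, then 3.60, 4.71 and 3.82) with 1 of 3 En2-/- arrays above background. Among transcripts whose function is not described, 9430027B09Rik (7.09, 6.78 and 6.98, then 2.20, 2.07 and 2.16) was lower by a factor of at least 7.44, D430006K04 (5.41, 5.74 and 5.87, then 1.85, 2.01 and 1.88) by at least 3.08 and C130078N14 (4.75, 5.199 and 5.79, then 1.96, 2.02 and 2.003) by at least 2.29. Sln, an inhibitor of the calcium pump of muscle, fell by 2.41 (9.72, 9.97 and 10.78, then 7.96, 7.13 and 8.16), and Cdc20, an activator of the complex that ends mitosis, by 1.81 (10.95, 10.59 and 10.68, then 9.27, 8.31 and 9.22). Sln and Cdc20 lost their call without any 1 array. The same held for Hmcn1, Cxcl11, LOC552903, Tjap1, Tcea3, Trhr, Aspg, C2, Nek11 and Timp3 among the genes that rose, and for Acad9, Sema3e, Anxa8, Cyp39a1, Slc5a1 and 2410124H12Rik among those that fell.

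**Figure D2:**
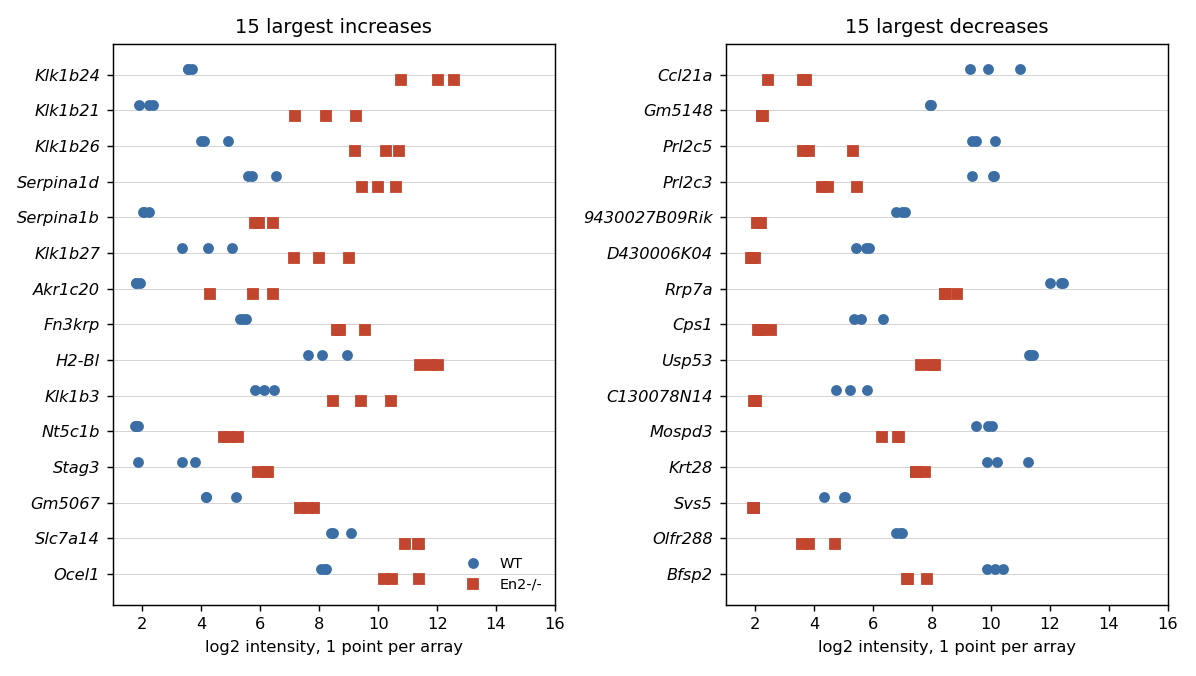
Log2 intensity on each of the 6 cerebellum arrays (horizontal axes, circles for WT, squares for En2-/-) of the 15 called genes with the largest increase (left) and the 15 with the largest decrease (right). No gene shown has overlapping genotypes, and for Klk1b21, Serpina1b, Akr1c20 and Nt5c1b the WT values, and for Ccl21a, Gm5148, 9430027B09Rik, D430006K04, Cps1, C130078N14 and Svs5 the En2-/- values, are not above background.

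Dim genes depended on how the background was corrected. With the normexp correction in place of the scanner software's, the increase of Klk1b24 was 5.58, of Klk1b21 2.27, of Serpina1d 2.99 and of Serpina1b 0.94, and the decrease of Ccl21a was -3.65, of Gm5148 -1.95 and of Prl2c5 -3.32. Several brighter genes kept most of their size, with Rit2 at -2.70, Rrp7a at -3.51, Slc7a8 at -2.50, Slc7a14 at 2.42 and H2-Bl at 3.30. Others shrank more, with Usp53 at -3.04, Mospd3 at -2.46 and Bfsp2 at -2.22. Under that correction 62 genes were called, 25 higher and 37 lower, and Serpina1b, Akr1c20, Nt5c1b, Stag3, Klk1b27, Klk1b3, Cps1, Svs5, D430006K04 and C130078N14 were not among them.

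Genes of immunity moved in both directions. MHC class I and antigen processing genes, which serve to show peptides of the cell's interior to T cells, had 20 members tested, 13 higher and 7 lower, with a median of 0.28 against -0.03 for all genes. Within slides 1, 2 and 3 the median was 0.36, -0.06 and 0.61, and it ran from 0.17 without WT 3 or without En2-/- 3 to 0.49 without En2-/- 2. The one called was H2-Bl, which read 7.61, 8.08 and 8.96 and then 12.02, 11.41 and 11.80, up by 3.53 (SE 0.35, limma adjusted p = 0.0052) and stable, and 2 further probes of it were higher as well. H2-D1, H2-K1, H2-Q2, H2-Q5, H2-Q7, H2-Q10 and H2-T23 had En2-/- arrays above all WT arrays without being called, by 0.22 (H2-K1) to 0.80 (H2-Q7 and H2-Q10). For H2-Q10 (13.35, 13.21 and 12.40, then 13.71, 13.67 and 13.97) as for the other 6 of these genes, WT 3 was the lowest array. H2-Q1 went the other way (8.72, 8.78 and 9.16, then 8.08, 8.20 and 8.004, limma adjusted p = 0.217). Many class I genes resemble each other closely and differ between strains, so their probes may have read several of them.

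MHC class II genes, which show peptides taken up from outside, had 8 members tested, of which H2-Eb1 fell by 1.87 (7.46, 7.37 and 6.77, then 5.45, 5.28 and 5.26, limma adjusted p = 0.0142). The median of the 8 was -0.23 and became 0.52 without En2-/- 2, so the list has no direction that holds over the arrays. In the complement system 3 of 13 genes were called. C2 and Cfb, neighbouring genes whose products cut C3, rose by 1.24 (10.62, 10.72 and 10.77, then 12.08, 11.70 and 12.04) and 1.504 (5.43, 5.35 and 5.65, then 7.16, 6.78 and 6.995). Cd59a, which shields cells from the final complement pore, fell by 1.83 (12.17, 12.09 and 12.02, then 10.31, 10.27 and 10.22, limma adjusted p = 0.00372) and was stable, although a second, dimmer probe overlapped (8.78, 9.47 and 9.83, then 9.15, 7.81 and 8.84). C4b, next to C2, differed by 0.56 and was not called.

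Among chemokines and their receptors, 28 were tested, with Ccl21a called lower and Cxcl11, a ligand of Cxcr3, called higher, at least 2.18-fold (3.36, 3.48 and 3.78, then 5.37, 5.003 and 4.68), and the median was -0.02. Other called genes of immunity were the cytokine genes Lta, higher (at least 3.63-fold), and Il23a, lower (at least 1.84-fold), Pglyrp1, which binds bacterial cell walls and fell by 1.87, and Nfkbie, an inhibitor of the factor NF-kB, which fell by 1.72. None of 24 interferon response genes was called by limma, 1 was higher and 4 lower without overlap, and their median of -0.09 turned to 0.02 without WT 3 and 0.03 without En2-/- 2. Irf7, a factor that drives interferon genes, read 5.97, 6.19 and 5.97 and then 4.57, 5.08 and 5.52 (limma adjusted p = 0.263). Eif2ak2, the kinase that stops translation on viral RNA, went the other way by 1.48 and just missed the threshold (7.24, 7.45 and 7.78, then 8.90, 9.43 and 8.58, limma adjusted p = 0.0804).

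Markers of cell types moved less than the called genes, and not 1 member of the 17 lists plotted was called, so what follows describes counts and medians and no list was tested. All 17 Purkinje cell genes tested had a lower mean in En2-/- cerebellum, with a median of -0.47 against -0.03 for all genes, and 7 of them had no overlap (background 8.62% lower). Pcp2, a Purkinje cell protein that binds G proteins, read 15.33, 15.07 and 15.67 in WT and 14.67, 14.10 and 14.96 in En2-/- cerebellum, lower by -0.78 (SE 0.27, limma adjusted p = 0.442). Calb1, the calcium buffer calbindin, read 16.23, 16.17 and 16.42 and then 15.78, 15.65 and 15.86, a difference of -0.51. Ppp1r17, a phosphatase inhibitor, differed by -0.77 (14.02, 13.77 and 14.41, then 13.25, 13.35 and 13.31), Lhx1, a homeobox factor, by -0.49, Rgs8, a regulator of G protein signals, by -0.47, Ryr1, a calcium release channel, by -0.47 and Pcp4, which binds calmodulin, by -0.28. Itpr1, the IP3 receptor, and Foxp2, a transcription factor, differed least (-0.06 and -0.09). The summed intensity of the list was 504300 to 660900 on WT arrays and 421700 to 460800 on En2-/- arrays, and within slides 1, 2 and 3 its median was -0.40, -0.30 and -0.51. WT 3 had the highest value of several members, and without it the median was -0.23.

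The other neurons of the cerebellar cortex did not move as one. Granule neuron genes were split 7 higher and 8 lower, with a median of -0.09 and Gabra6 at 0.04, and 1 of them, Etv1, a factor of mature granule neurons, had no overlap (14.14, 14.16 and 14.26, then 14.37, 14.40 and 14.47). Genes of molecular layer interneurons were 4 higher and 8 lower (median -0.14, and -0.01 without WT 3). Kit, the receptor for stem cell factor that these interneurons carry, read 12.68, 12.63 and 12.59 and then 11.44, 12.24 and 11.66, a difference of -0.85 (limma adjusted p = 0.291). Of 5 Golgi cell genes 4 were higher, among them the glycine transporter Slc6a5 (11.52, 11.74 and 10.85, then 12.17, 11.82 and 11.75), and of 5 genes of the cerebellar nuclei 4 were higher, none without overlap.

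Choroid plexus epithelium, which makes the cerebrospinal fluid, showed 1 direction throughout. All 14 genes tested had a higher mean in En2-/- cerebellum, 7 of them without overlap (background 5.93% higher), with a median of 0.34. Ttr, the thyroid hormone carrier that defines this epithelium, read 12.40, 12.57 and 13.06 in WT and 13.21, 13.76 and 13.71 in En2-/- cerebellum, a difference of 0.88 (SE 0.25, limma adjusted p = 0.31). Aqp1, its water channel, differed by 0.85 (9.13, 9.30 and 9.97, then 10.09, 10.46 and 10.40), and Kl, the ageing-related protein klotho, by 0.43. The summed intensity was 27220 to 30030 on WT arrays and 35050 to 41790 on En2-/- arrays, no marker on the array was missing from the genes tested, and the slides gave medians of 0.24, 0.52 and 0.40. Without WT 3 12 of the 14 were higher, and without WT 1 or En2-/- 2 13 were. Otx2, a homeobox factor made in this epithelium (7.91, 8.48 and 8.57, then 8.85, 9.40 and 9.36, a difference of 0.88), and Htr2c, its serotonin receptor (9.35, 10.25 and 9.79, then 10.34, 10.93 and 10.78, a difference of 0.89), lay in the same direction. Meningeal fibroblast genes were 9 higher and 3 lower (median 0.24), led by Igf2, a growth factor (13.56, 13.06 and 12.63, then 13.94, 14.21 and 14.03, a difference of 0.98), and the matrix proteins Fmod and Ogn (0.68 and 0.61), while Foxc1, a factor of the meninges, was lower (-0.40). The summed intensity of the meningeal genes was 26330 to 40190 on WT arrays and 44580 to 51690 on En2-/- arrays. The mean of their deviations from the WT means overlapped, at 0.17 on WT 1 against 0.08 on En2-/- 2. Within slides 1, 2 and 3 the meningeal median was 0.19, 0.09 and 0.52. The part of choroid plexus and meninges in the differences of other genes was not tested.

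Genes of vessels were mostly lower. Of 14 endothelial genes 11 were lower, 5 of them without overlap, with a median of -0.27. Cldn5, the tight junction protein of the blood-brain barrier, read 12.31, 12.04 and 12.32 and then 11.58, 11.26 and 11.42, a difference of -0.80 (limma adjusted p = 0.193), and Kdr, the receptor for VEGF, read 9.17, 9.21 and 8.99 and then 8.45, 8.42 and 8.45, a difference of -0.68. Of 10 mural cell genes 8 were lower (median -0.36, and -0.49, -0.34 and 0.08 within slides 1, 2 and 3), among them Pdgfrb, the receptor that pericytes need (11.78, 11.06 and 11.04, then 10.87, 10.51 and 10.63). Without En2-/- 1 the endothelial median was -0.16, with 11 of 14 still lower.

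Microglia genes were lower for 15 of 17 (median -0.31), but that rested on 1 array. The median within slides was -0.07, -0.77 and 0.00, and without En2-/- 2 it was -0.08. C1qc, a chain of the complement starter C1q, shows it, at 12.22, 12.12 and 11.69 in WT and 12.15, 10.38 and 11.74 in En2-/- cerebellum. The summed intensity was 29490 to 33610 on WT arrays and 30950, 19130 and 27880 on En2-/- arrays. Fcrls, a receptor found on microglia, was lower on every En2-/- array (7.69, 6.68 and 7.14, then 5.91, 5.56 and 5.99, limma adjusted p = 0.132). The array En2-/- 2 also had the lowest mean deviation for red blood cell genes (-0.96, against 0.00 and 0.03 on En2-/- 1 and 3), MHC class II genes (-1.09), chemokines (-0.90), the respiratory chain (-0.47) and mitochondrial ribosomal proteins (-0.37). Of 6 lymphocyte genes tested, 4 were lower without overlap, among them Cd3e and Cd79b of the antigen receptors (-0.59 and -0.57) and the integrin gene Itgb7 (-1.28). Another 6, Cd4 and Cd8a among them, did not pass the limit on dim probes. Of the 6 tested, 5 were in the dimmest of the 4 level groups, where 11.8% of all genes were lower without overlap. The lymphocyte median was -0.58, and with all arrays kept it ran from -0.64 to -0.18 under other processing.

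Among glia, Bergmann cells, the radial glia that wrap Purkinje cells, had 7 of 8 genes lower (median -0.27). Within slides 1, 2 and 3 that median was -0.43, -0.08 and -0.27. Their summed intensity overlapped, at 210100 to 437500 on WT arrays and 181100 to 315400 on En2-/- arrays. Gdf10, a TGF-beta family ligand of Bergmann cells, read 12.32, 12.62 and 11.81 and then 10.81, 11.39 and 11.38, a difference of -1.06 (SE 0.27, limma adjusted p = 0.248), and the glutamate transporter Slc1a3 differed by -0.26. Astrocyte genes were 9 higher and 4 lower with a median of 0.06, and the water channel Aqp4 was higher without overlap (12.09, 12.13 and 11.85, then 12.47, 12.40 and 12.47). Oligodendrocyte genes had a median of 0.05 with 10 of 17 higher, 3 of them without overlap, and a median of -0.16 without WT 3. The dopaminergic list had 8 of 9 genes higher, with mean deviations of -0.38, 1.57 and 1.25 on the En2-/- arrays. Slc6a3, the dopamine transporter, was split within the genotype (5.54, 8.36 and 7.07, then 5.54, 12.48 and 11.73). No member but Ddc, which makes dopamine from its precursor (12.05, 12.16 and 11.97, then 12.39, 12.89 and 12.58), was higher without overlap. The 1 lower member had no overlap either. The summed intensity of the list overlapped, at 6717 to 48030 on WT arrays and 35060 to 52640 on En2-/- arrays. Dopaminergic neurons lie in the midbrain, next to the cerebellum.

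**Figure D3:**
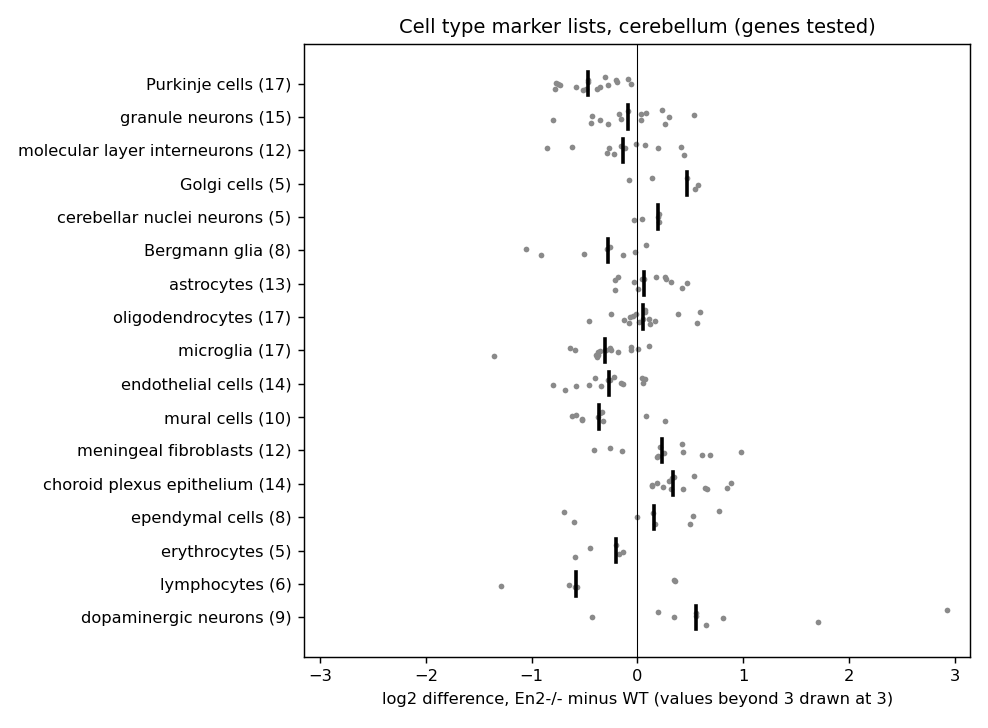
Difference of each gene tested (horizontal axis, log2, En2-/- minus WT) in 17 lists of cell type markers, with the number tested in brackets. Each point is a gene and the bar is the median of the list, which is -0.47 for Purkinje cells and 0.34 for choroid plexus epithelium.

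Genes that place and connect neurons held few called genes. Of 69 axon guidance ligands and receptors 6 were higher and 7 lower without overlap and 1 was called, Sema3e, a secreted ligand of plexin D1, which read 11.32, 11.51 and 11.39 and then 9.92, 10.23 and 10.26, down by 1.27 (limma adjusted p = 0.0322). Its second bright probe did not differ to that extent (8.78, 9.11 and 9.58, then 8.999, 8.84 and 8.94). Nrp2, a receptor of class 3 semaphorins, lay just short of the threshold at 1.30 (11.30, 11.36 and 11.70, then 12.94, 12.41 and 12.92, limma adjusted p = 0.0663), and Sema3d, another such ligand, differed by 1.40 (5.11, 5.21 and 6.08, then 7.13, 6.69 and 6.78, limma adjusted p = 0.132). On the other side Epha2 and Sema6c differed by -1.14 and -1.03. Epha4, an ephrin receptor that is also a marker of Purkinje cell stripes, was higher without overlap (11.34, 11.54 and 11.24, then 11.72, 12.24 and 11.88), as was Plcb4, a phospholipase of a set of stripes (9.38, 9.98 and 9.95, then 10.05, 10.09 and 10.65), while Aldoc, the zebrin of the complementary stripes, differed by 0.07. Of 10 stripe genes tested 6 were higher and 4 lower, with a median of 0.05, and 1 was lower without overlap. None of the 28 clustered protocadherins, which give neurons their surface identity, was called, and 25 were lower with a median of -0.24. Only 3 of the 28 were lower without overlap (background 8.62%). Within slides 1, 2 and 3 the protocadherin median was -0.32, -0.19 and -0.08. Their mean deviations overlapped, at -0.13 on WT 3 against -0.105 on En2-/- 2.

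Of the genes that act with engrailed at the border of midbrain and hindbrain, 18 of 25 were tested and none was called. Otx2 (above) was higher without overlap, and Tle2, a corepressor of the Groucho family, to which engrailed proteins bind, was lower (12.32, 12.49 and 12.62, then 12.06, 11.95 and 12.09, a difference of -0.45). En1, the other engrailed gene, did not pass the limit on dim probes. Of 51 other homeobox genes 4 were higher and 5 lower without overlap, among them Zfhx4 (0.96), Lhx2 (0.81, 9.36, 9.47 and 9.54, then 9.78, 10.74 and 10.28) and Msx2 (-0.71). Of 20 genes of the Notch pathway, by which neighbouring cells set each other's fate, 14 were lower, 5 without overlap, including the receptor Notch4 of endothelium (-0.69) and the target Heyl (9.27, 9.36 and 9.51, then 8.93, 8.64 and 8.63). Receptors and channels of signalling held no called gene in 22 glutamate receptors, 21 GABA and glycine receptors, 74 potassium, 23 calcium and 9 sodium channel subunits. Gria2, the AMPA receptor subunit that keeps calcium out, was the glutamate receptor with the largest difference without overlap (13.66, 13.91 and 14.13, then 14.61, 14.66 and 14.75, 0.77, limma adjusted p = 0.22). Kcnt2, a potassium channel, was higher by 0.92, and Cacng5, an auxiliary AMPA receptor subunit, was lower by -0.77.

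Genes that report on neuronal activity and signals between cells gave few differences beyond the spread of the arrays. Among 16 immediate early genes, which rise within minutes of activity, 5 were lower without overlap and 0 higher, the median was -0.01, and none was called. Arc, which acts at active synapses, read 12.57, 12.21 and 11.66 and then 11.33, 10.75 and 11.24, a difference of -1.04 (SE 0.28, limma adjusted p = 0.281), and Egr4 differed by -0.56. Of 26 neuropeptide and granin genes 16 were higher, with Cartpt, the precursor of the peptide CART (10.32, 10.51 and 9.17, then 10.79, 11.63 and 11.56, a difference of 1.33), and Calcb, of the calcitonin peptides (6.56, 6.75 and 5.77, then 7.58, 7.53 and 7.26, a difference of 1.10), leading. Of 25 neurotrophic factor and receptor genes 5 were higher without overlap and 0 lower, Igf2 and the neuregulins Nrg1 and Nrg3 (0.53 and 0.60) among them. Trhr, the receptor of thyrotropin-releasing hormone, rose by 1.29 (7.0003, 7.12 and 6.79, then 8.17, 8.47 and 8.13, limma adjusted p = 0.0374).

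Families used by every cell stayed near 0. The 82 cytosolic ribosomal proteins had a median of 0.07, with 55 higher, and the 82 subunits of the respiratory chain and ATP synthase -0.07, with 54 lower. Both directions depended on single arrays, since the ribosomal median was -0.05 without En2-/- 1 and 0.23 without En2-/- 2, and the respiratory median was 0.11, with 65 of 82 higher, without En2-/- 2. The 39 proteasome subunits had a median of 0.09, the 52 translation initiation factors -0.05 and the 51 splicing factors -0.04, and none of these families held a called gene. Solute carriers, 278 in number, had a median of 0.00 and 4 called members, Slc7a14 higher and Slc7a8, Slc5a1 (a sodium and glucose carrier) and Slc25a47 (a mitochondrial carrier) lower. Zinc finger genes of the Zfp series, 333 in number, had 2 called, Zfp236 and Zfp68, both higher. With each array scaled to its 75th percentile in place of quantile normalization the median of all genes was -0.08, and the medians of cytosolic ribosomal proteins, proteasome subunits, solute carriers, astrocytes and oligodendrocytes were below 0.

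The families with the lowest medians were those of dim genes. Of 155 olfactory receptors, proteins of the nose that few brain cells make, 135 were lower with a median of -0.38, and 30 had no overlap. That median was -0.16 with the normexp correction and with the authors' values, and -0.22 without WT 1. The dimmest of the 4 level groups held 146 of them, and over all 4008 genes of that group 58.0% were lower, with a median of -0.09 and 11.8% lower without overlap. Keratins, filaments of epithelia, had a median of -0.44 (15 of 20 lower, 12 in the dimmest group), which was -0.19 with the normexp correction and -0.28 without WT 1. Cytochromes P450, oxidases of steroids and drugs, had a median of -0.29 with 33 of 44 lower, which ran from -0.48 without WT 3 to -0.14 without WT 1. Of these Cyp39a1, which acts on a cholesterol product of the brain, fell by 1.30 (8.74, 8.69 and 8.71, then 7.58, 7.42 and 7.23) and Cyp3a13 rose by 2.13 (4.24, 4.68 and 4.41, then 6.54, 6.75 and 6.44). Among families formed by the start of the gene symbol, the Cfap genes of cilia and flagella had 19 of 25 higher and 11 higher without overlap, with a median of 0.23. Cfap54 differed by 1.28 (4.05, 3.32 and 3.48, then 4.85, 5.14 and 4.71, limma adjusted p = 0.0936) and Cfap44 by 1.03 (6.11, 6.73 and 6.83, then 7.57, 7.603 and 7.58), while Cfap69 was lower (10.71, 10.75 and 10.94, then 10.07, 9.90 and 9.89). The Cfap family was noticed after its values were seen. Other genes of cilia were divided, with 6 of 10 axonemal dyneins higher and 4 lower, and 5 of 8 ependymal cell genes higher and 3 lower. Tekt2, a tektin of cilia and flagella, was called lower and fell by 1.70 (10.04, 9.82 and 9.88, then 8.30, 8.04 and 8.30, limma adjusted p = 0.00779).

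**Figure D4:**
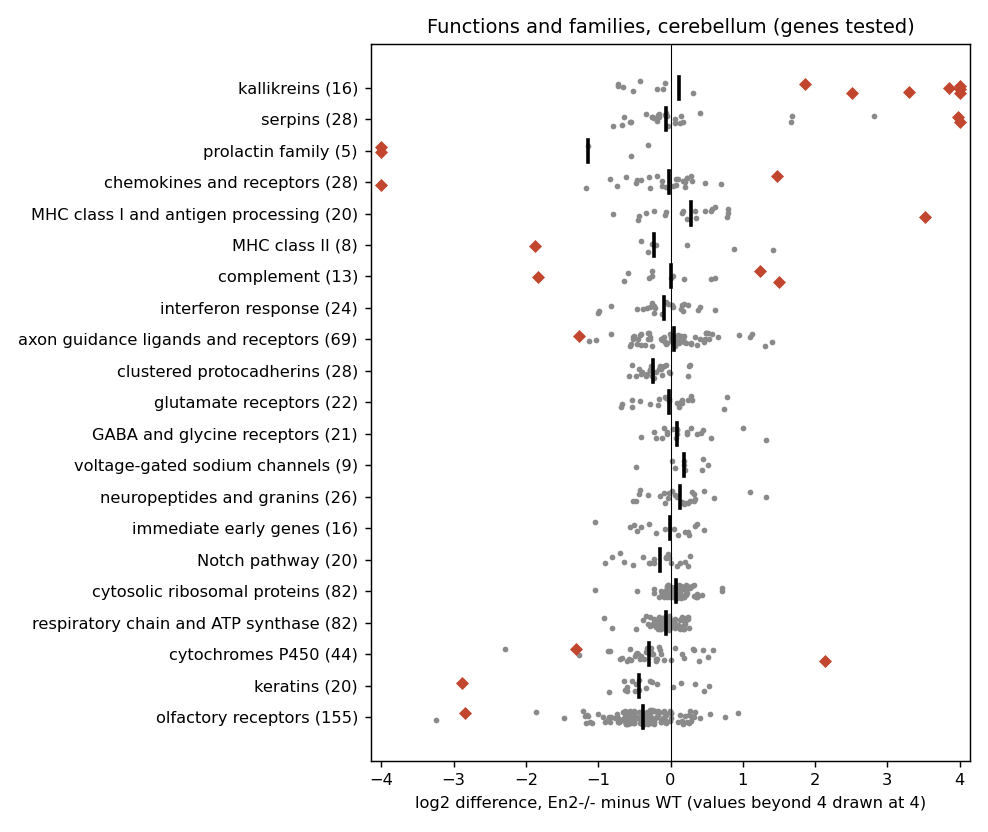
Difference of each gene tested (horizontal axis, log2, En2-/- minus WT, values beyond 4 drawn at the edge) in 21 lists of functions and gene families, with the number tested in brackets. Grey points are genes not called, red diamonds called genes and bars medians, and the called genes stand far from the median of their own list.

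Called genes were not spread evenly over the genome. Chromosome 17 held 13 of 776 genes tested (1.68%), chromosome 5 held 14 of 1011 (1.38%), chromosome 15 held 7 (1.09%) and chromosomes 6 and 19 held 0 of 799 and 562, against 0.568% over all. Within 1 Mb of one another, 34 of the 91 genes formed 10 clusters. The Klk1b cluster on chromosome 7 (51209619 to 51466457, mm9) held 7 called genes of 8 tested, all higher. The cluster on chromosome 17 (34452050 to 37088519) held 8 of 95, with Cfb, C2, D17H6S56E-5, Lta, 5430410E06Rik and H2-Bl higher and H2-Eb1 and Ppp1r11, a phosphatase inhibitor, lower. That on chromosome 5 (138038159 to 139047455) held 5 of 31, with Cyp3a13, Stag3 and Zfp68 higher and Mospd3 and Pilra, an inhibitory receptor of myeloid cells, lower. Around En2, on the same chromosome but far from that cluster, 1 of 106 genes within 5 Mb was called (Gm5067) and 4 of 249 within 20 Mb (with Sema3e, Slc5a1 and Speer4cos). Neighbours in a cluster are not independent of each other.

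Engrailed proteins bind DNA at sites with the core TAATTA, which reads the same on both strands. Promoters of 300 bases, from 250 before to 50 after the start in RefSeq (GRCm38.p6), were found for 65 of the 91 called genes. The core was in 0 of 27 promoters of genes that rose, in 2 of 38 of genes that fell, in 3.86% of 12294 promoters of genes tested and in 6.12% of all 27025 promoters. A match shows only that these letters are present. The windows that hold it, on the minus strand, are those of Krt28 (chr11:99375009-99375068, the core 138 bases before the start) and Slc7a8 (chr14:54782014-54782073, 160 bases before it), with the core in capitals.
Krt28: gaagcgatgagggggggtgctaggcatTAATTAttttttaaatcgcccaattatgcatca
Slc7a8: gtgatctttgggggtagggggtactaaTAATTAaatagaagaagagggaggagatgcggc
Krt28 fell by 2.88 and Slc7a8 fell by 2.58 in En2-/- cerebellum, as above.

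Many genes called in the cerebellum differed in the hippocampus of the same genotypes too. In a model over the 12 arrays, 78 of the 91 had the same sign there and 45 were called there (background 1.03% of 15983 genes, 0.619% higher and 0.413% lower). Examples in the hippocampus are Ccl21a (-7.58), Klk1b24 (6.32), 9430027B09Rik (-5.21), Gm5148 (-4.74), Fn3krp (4.61), H2-Bl (4.54), Rrp7a (-3.52) and Rit2 (-2.29). A term for the difference between tissues passed the threshold for 24 genes (0.15%), with 1857 at an unadjusted p under 0.05, and 11 of the 24 were called in the cerebellum. Nt5c1b, Prl2c3, Prl2c5, Svs5, Krt28 and C530042K13Rik differed in the cerebellum and lay between -0.14 and 0.06 in the hippocampus. Cps1, Sln, Mdfi, Cdc20 and Hmcn1 had the opposite sign there, at 1.76, 1.76, 0.63, 0.52 and -0.88, none of them called in the hippocampus. Akr1c20, at 0.07 in the hippocampus, missed the threshold of that term (limma adjusted p = 0.0756). Probes were filtered by their signal in the cerebellum only. Whether the probes of genes near 0 in the hippocampus were above background there was not tested. When each of the 12 arrays was left out in turn, the term called 6 to 24 genes.

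**Figure D5:**
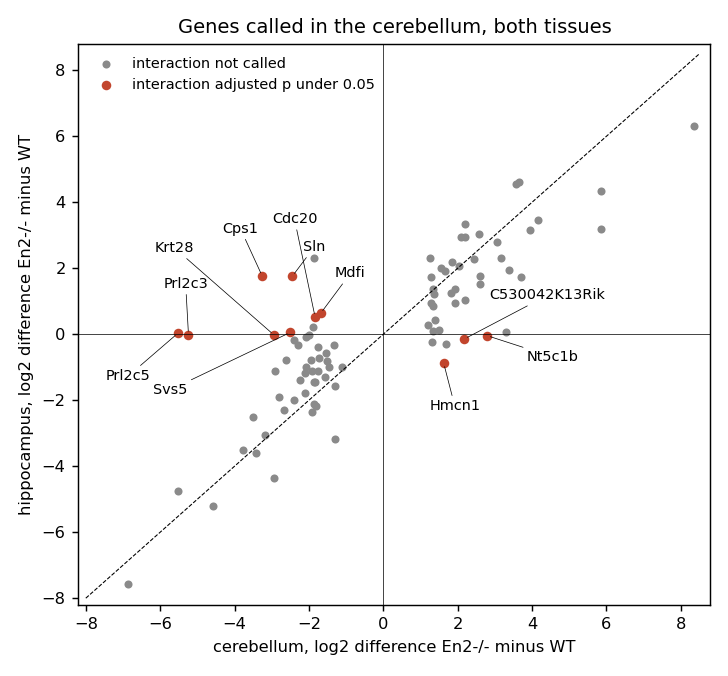
Difference En2-/- minus WT in the cerebellum (horizontal axis, log2) and in the hippocampus (vertical axis, log2) of the 91 genes called in the cerebellum, from 1 model over 12 arrays. The dashed line marks equal differences, and the 11 genes in red, those with a difference between tissues at an adjusted p under 0.05, lie near or across the horizontal line at 0.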

How the data were processed

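The files per array hold Agilent scanner output, in which the deposited intensity is the processed signal of each spot, background-subtracted by the scanner software, in 1 colour (Cy3). The table of the series holds log2 values deposited by the authors from the same arrays, and each of its columns matched its own array best (rank correlation at least 0.998, at most 0.989 with another). Control spots and spots marked as outliers were left out (129 to 331 per cerebellum array), log2 processed signals were quantile normalized over the 6 arrays, spots of a probe were averaged, and the brightest probe stood for its gene. Of 41174 probes 34898 had a gene name, giving 21164 genes after updating symbols with RefSeq. Genes with a probe well above background on at least 3 of 6 arrays were tested.

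The tests were the linear models of limma 3.58.1 in R 4.3.3, two-sided, with empirical Bayes variances and Benjamini-Hochberg adjustment over 16031 genes, after a check on simulated data. Tables and figures used Python 3.11.15, numpy 2.4.6, pandas 2.3.3 and matplotlib 3.10.9. Named were En2, the 15 called genes with the largest increase and the 15 with the largest decrease, and from each list its called members (at most 6), in each direction the 2 members with the largest difference whose genotypes did not overlap, and defining markers. Some of these are given only by their range, and other genes were named after their values were seen. The members and lists were chosen with earlier results of these data known, and lists were described without a test. The number of arrays limits the precision. Alternatives changed the normalization, background correction, filter, probe choice, test, covariates and arrays.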

Additional observations from a re-analysis of the deposited data

Results flagged for a closer look

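For 11 genes called in the cerebellum, the difference between En2-/- and WT was itself different in the hippocampus, by limma's interaction term over 12 arrays with an adjusted p under 0.05. The cerebellum minus hippocampus difference of the log2 changes was 2.83 for Nt5c1b (adjusted p = 0.000515), -5.22 for Prl2c3 (adjusted p = 0.000547) and -5.56 for Prl2c5 (adjusted p = 0.00157). It was -2.55 for Svs5, -2.36 for Cdc20, 2.5 for Hmcn1, -4.21 for Sln, -2.92 for Krt28 and -5.02 for Cps1, with limma adjusted p from 0.00375 to 0.0313. It was 2.32 for C530042K13Rik and -2.32 for Mdfi, with limma adjusted p of 0.0421 and 0.0493. Svs5 and Cps1 had 0 of 3 En2-/- and Nt5c1b and C530042K13Rik 0 of 3 WT cerebellum arrays above background, so their cerebellar changes are known only as at least 1.69-fold and 3.28-fold lower and at least 2.14-fold and 2.16-fold higher, and the sizes above rest on values at background. These 11 were picked from the 91 genes called in the cerebellum, a choice that favours large cerebellar differences. Whether their probes were above background in the hippocampus was not tested.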

How the results depend on the processing

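The count of 91 called genes was 938 with array weights, 777 by rank product, 155 with limma over all 12 arrays, 148 at an adjusted p under 0.1, 47 with no filter on dim probes and 35 with the Y-linked level as a covariate, although Y-linked probes were at background on every cerebellum array. It ranged from 39 to 78 when 1 array was left out, and was 62 with the normexp correction and 65 with the authors' log2 values. Of 1693 values of called genes under alternatives 1184 stayed past the threshold, 509 did not, and 0 turned. Scaling to the 75th percentile gave 90 genes, 35 higher and 55 lower, in place of 42 and 49. The tissue term called 6 to 24 genes when 1 array was left out.

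Replicates of one number did not deviate together (correlations of -0.0466, 0.11 and 0.0076), though they shared a slide. With the replicate number, and so the slide, as a block, 77 genes were called in the cerebellum, 69 of them among the 91, and 19 by the tissue term.

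Over 86 lists, 78 of 1634 medians moved by more than the spread of the arrays. Among lists of 10 or more genes with a median of at least 0.25 in size these were the following. Purkinje cells had -0.2569 with array weights, and -0.4982 to -0.2257 when 1 array was left out. Endothelial cells ranged from -0.359 to -0.1611 and cytochromes P450 from -0.4795 to -0.1445 in the same way. Choroid plexus epithelium had 0.4738 with array weights, 0.4405 with the Y-linked covariate and 0.369 to 0.4405 when 1 array was left out. Keratins had -0.1857 with normexp, -0.1553 with the authors' values and -0.243 with array weights. The causes were not tested. The sizes of changes in dim genes are limited by the signal over background.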

Other observations

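Genes of cell adhesion and the cytoskeleton were not described above. Of 25 integrin genes, receptors for the matrix, 17 were lower with a median of -0.23, and none was called. Itga4, which pairs with Itgb1 on leukocytes, was higher by 0.95, and Itgb6, an epithelial subunit, was lower by -1.95 with 1 of 3 En2-/- arrays above background, each without overlap between genotypes. Of 41 collagens 4 were higher and 6 lower without overlap, with a median of -0.03 that turned to 0.01 with the normexp correction. Of 15 tubulins 11 were lower with a median of -0.11, which ran from -0.27 without WT 3 to -0.02 without En2-/- 2. Tuba8, an alpha-tubulin, read 11.38, 11.26 and 11.22 in WT and 10.27, 9.81 and 10.48 in En2-/- cerebellum (a difference of -1.10, limma adjusted p = 0.109). Among 36 kinesins, motors on microtubules, 28 were tested, with 6 higher and 3 lower without overlap.

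Clock and hormone genes gave few differences. Of 19 circadian clock genes 9 were higher and 10 lower, 1 of these without overlap, with a median of -0.01, and none was called. Rorb, a nuclear receptor that drives clock genes, was higher by 0.95 and Per2, a repressor of the clock, by 0.78, each without overlap. Of 10 genes of thyroid hormone action 6 were lower and 4 higher. Hox genes, which pattern the hindbrain and trunk, had 21 of 38 tested, 12 higher and 9 lower, with no direction that held over the arrays. Their median was 0.20, but -0.57 without WT 3 and -0.26 without En2-/- 1, and 0.48, -0.59 and 0.96 within slides 1, 2 and 3.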
